A study of Mus musculus with 8 samples.

Results

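The comparison set the 2 libraries labelled ExDSS against the 2 libraries labelled NC, which together make 4 of the 8 libraries of a mouse intestine RNA-seq series. These groups were chosen by a measured property: both carry abundant neutrophil and cytokine transcripts, while the libraries labelled PC and Ex do not. All mice were wild type C57BL/6. Animals labelled ExDSS received 1 mg of bovine colostrum exosomes by gavage each day for 3 weeks and then drank 3% dextran sodium sulfate (DSS) for 6 days. Animals labelled NC received phosphate buffered saline by gavage and no DSS. PC stands for saline gavage followed by DSS, and Ex for exosomes without DSS. Neutrophil transcripts in libraries labelled as untreated go against that label, so every direction below is between libraries as labelled. As labelled, exosomes and DSS both differ between ExDSS and NC, so their effects cannot be told apart here. Whether the labels NC and PC were exchanged was not tested, and with exchanged labels both groups would have had DSS and differ by exosomes alone. The age of the mice and the region of the gut are not stated in the sources used here. The labels do not tie the 2 libraries of a group to different animals. Any p-value therefore rests on library-to-library spread that could be technical.

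DSS is a sulfated polysaccharide that damages the lining of the gut, lets luminal bacteria reach the tissue and so draws in neutrophils and monocytes. Calprotectin (S100a8 and S100a9) is the main cytosolic protein of neutrophils, Il1b and Cxcl10 are signals of activated myeloid cells, and Saa3 is an acute phase protein made in inflamed tissue. Exosomes are small membrane vesicles that cells secrete, here taken from the first milk of cows. In the epithelium, absorptive colonocytes take up salt and water and goblet cells secrete mucus, and both descend from dividing crypt cells.

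The widest gaps between the groups belonged to genes of varied roles with next to no counts in 1 group. Fxyd4, a regulator of the sodium pump in colon and kidney epithelium, had no count in either NC library and led all genes by the width of the gap. Tgm3, a transglutaminase that crosslinks proteins in surface epithelia, was the gene with the highest mean among those at least 2-fold higher in ExDSS. Fxyd4 lies on chromosome 6 at 117933559 to 117937335, minus strand, and Tgm3 on chromosome 2 at 130012340 to 130050399, plus strand, in GRCm38. The 120 bases before each annotated start are shown, Fxyd4 being chosen for its gap and Tgm3 for its level. Any match to the letters TATAAA on either strand is in capitals (RefSeq, GRCm38.p6).
Fxyd4, chr6:117937336-117937455, minus strand: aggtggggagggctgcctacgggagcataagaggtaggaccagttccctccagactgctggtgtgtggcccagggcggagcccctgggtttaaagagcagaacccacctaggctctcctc
Tgm3, chr2:130012220-130012339, plus strand: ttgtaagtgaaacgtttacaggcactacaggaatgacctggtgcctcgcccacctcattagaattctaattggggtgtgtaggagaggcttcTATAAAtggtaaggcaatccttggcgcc
The Tgm3 window holds 1 match, which begins 28 bases before the start, and the Fxyd4 window holds 0. Of 32851 windows of the same length, 2083 (6.34%) hold these letters. A match describes the letters only, and no promoter was measured in these libraries.

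Total counts were 11405200 in NC 1, 12308537 in NC 2, 9652586 in ExDSS 1 and 10812469 in ExDSS 2. At these similar depths 16123, 12683, 9825 and 11874 genes had at least 1 count. Epithelial identity was present in all 4: Epcam, an epithelial adhesion molecule, stood at 571, 552, 566 and 634 CPM in that order, where CPM are counts scaled to library size and composition. A set of 30 pancreatic acinar genes, which encode digestive enzymes, took 9.67% of the counts of NC 2 (95% Clopper-Pearson interval 9.65 to 9.68) and 21.6% of those of ExDSS 1 (21.6 to 21.7). In NC 1 and ExDSS 2 they took 0.0270% and 0.107%. The interval covers counting error only. Of 4718 genes at 20 CPM or more in each of PC 1, PC 2 and Ex 1, 2 fell short of 1 CPM in NC 1, 114 did so in NC 2, 519 in ExDSS 1 and 131 in ExDSS 2. Ex 2 holds 1163147 counts and served only in the shared estimate of spread.

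No gene passed the test between the groups. Of 14567 genes tested with edgeR's quasi-likelihood test, 0 (0%) had an adjusted p under 0.05, and the smallest adjusted p was 0.350. At an unadjusted p under 0.05 there were 138 genes higher in ExDSS (0.947%) and 1662 lower (11.4%). DESeq2 called 840 genes, 86 higher and 754 lower, and 531 of the lower ones had no count in either ExDSS library. With limma-voom the number was 405, of which 389 were lower, 292 of these without a count in either ExDSS library. An exact permutation test of any value between 2 and 2 libraries cannot give a p below 0.333. No change is therefore claimed for any gene below, and genes are described by their level in each library.

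Libraries of 1 group differed about as much as libraries of different groups. NC 1 and NC 2 were at least 4-fold apart for 33.7% of the tested genes, and ExDSS 1 and ExDSS 2 for 39.4%. Across the groups the share was 53.6% for NC 1 with ExDSS 1, 38.3% for NC 2 with ExDSS 1, 32.8% for NC 1 with ExDSS 2 and 31.2% for NC 2 with ExDSS 2. For the 1316 genes that averaged 100 CPM or more in PC 1, PC 2 and Ex 1, the share was 15.8% within NC and 11.3% within ExDSS. Between groups it was 6.08% for NC 1 with ExDSS 2, 6.69% for NC 2 with ExDSS 1, 8.43% for NC 2 with ExDSS 2 and 18.1% for NC 1 with ExDSS 1. So, by this share, 3 of the 4 pairs across the groups were closer in abundant genes than either pair within a group. The correlation of log2 CPM in these genes gave another order, at 0.725 within NC and 0.802 within ExDSS. It was 0.853 for NC 2 with ExDSS 1 and 0.813 for NC 2 with ExDSS 2. For NC 1 it was 0.793 with ExDSS 2 and 0.698 with ExDSS 1. The common dispersion estimated over all 8 libraries was 1.17.

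**Figure D1:**
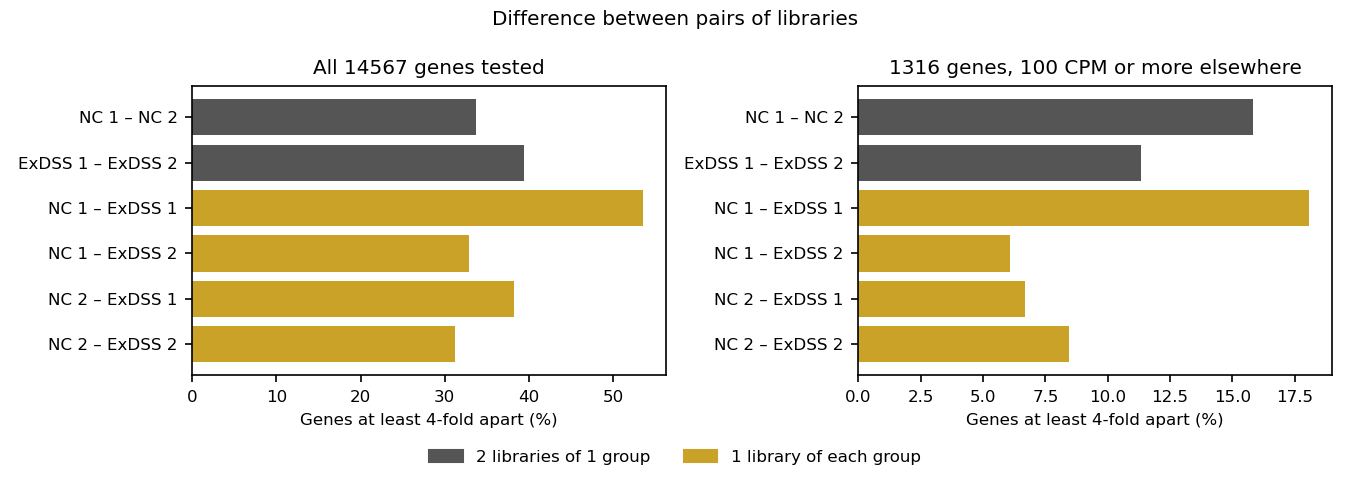
Share of genes (x axis, percent) at least 4-fold apart between 2 libraries, for all 14567 genes tested (left) and for the 1316 genes that average 100 CPM or more in PC 1, PC 2 and Ex 1 (right). Dark bars are pairs within a group and yellow bars pairs of 1 NC and 1 ExDSS library; in the right panel 3 yellow bars are shorter than both dark bars.

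Genes were also counted by whether the lower library of 1 group lay at least 2-fold above the higher library of the other. By this measure 241 genes (1.65%) were higher in ExDSS and 1747 (12%) were lower, with no test attached. Lower genes outnumbered higher ones at every level of abundance, and most of them were transcripts of low abundance. Of the 1747, 875 had no count in either ExDSS library and 1294 were under 1 CPM in both, and their median level over the NC libraries was 6.07 CPM. In 1508 of them PC 1, PC 2 and Ex 1 were also all at least 2-fold above both ExDSS libraries. The 1747 were taken for low values in ExDSS, so this count largely follows from that choice. Its share over all tested genes was not computed. The share of lower genes was 17.6% among genes averaging 1 to 5 CPM in PC 1, PC 2 and Ex 1, 14.3% at 5 to 20 CPM, 6.23% at 20 to 100 CPM and 1.67% from 100 CPM. The share of higher genes went from 2.65% to 1.63%, 0.479% and 0.152% over the same ranges. There were 605 lower and 91 higher genes at 1 to 5 CPM, and 22 lower and 2 higher genes from 100 CPM. At 5 to 20 CPM, genes without a count made up 0.0214% in NC 1, 9.31% in NC 2, 35.7% in ExDSS 1 and 15.7% in ExDSS 2. How far the missing genes of ExDSS 1 set the count of lower genes was not tested beyond leaving libraries out. With 1 library in a group the condition is easier to meet: the counts were 1131 higher and 2525 lower without NC 1, 884 and 4603 without NC 2, 1331 and 2984 without ExDSS 1, and 1606 and 4887 without ExDSS 2.

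**Figure D2:**
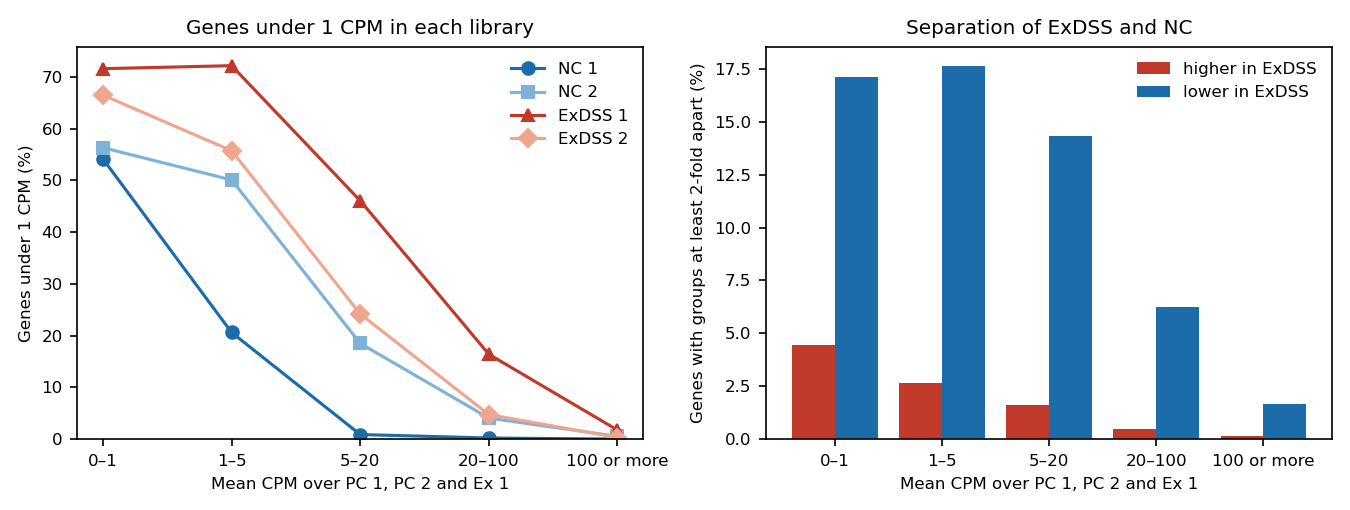
Left, share of genes under 1 CPM (y axis, percent) in each library against the mean level of the gene in PC 1, PC 2 and Ex 1 (x axis, CPM classes). Right, share of genes whose groups lie at least 2-fold apart (y axis, percent) in the same classes: the lower genes make up 17.6% at 1 to 5 CPM and 1.67% at 100 CPM or more.

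Among the genes higher in ExDSS, a small set was also higher in PC 1, PC 2 and Ex 1 than in NC 1 and NC 2. Fxyd4 stood at 0 in NC 1, 0 in NC 2, 47.0 CPM in ExDSS 1 and 37.3 CPM in ExDSS 2, against 17.8, 55.4 and 175 CPM in PC 1, PC 2 and Ex 1. It was at least 174-fold higher in ExDSS, against a floor of 3 counts per library in NC. The edgeR adjusted p was 0.350 and the unadjusted p 0.00035. Without the filter on low counts Fxyd4 was the only gene called by edgeR, at an adjusted p of 0.0246. Tgm3 stood at 8.30 and 10.9 CPM in NC, 184 and 665 CPM in ExDSS, and 230, 506 and 946 CPM in PC 1, PC 2 and Ex 1. Its log2 fold change was 5.47 (SE 1.88, edgeR adjusted p = 0.350). For both genes the 2 NC libraries were the lowest of these 7, and the ExDSS values lay within or near the range of PC 1, PC 2 and Ex 1. Of the 241 higher genes, 24 had PC 1, PC 2 and Ex 1 all at least 2-fold above both NC libraries. Since the 241 were taken for low values in NC, this count partly follows from that choice.

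A larger set of higher genes was high in ExDSS alone among these 7 libraries. In 168 of the 241, PC 1, PC 2 and Ex 1 were, like NC, all at least 2-fold below both ExDSS libraries. The 241 were taken for high values in ExDSS, so this count partly follows from that choice. Its share over all tested genes was not computed. Most of the 241 had counts in NC, with a median level of 2.68 CPM over the NC libraries, and 38 were under 1 CPM in both. The examples that follow are genes at or near 0 in NC. G6pc, the glucose-6-phosphatase of liver, kidney and small intestine, was at 0.266 and 0.286 CPM in NC and at 103 and 50.9 CPM in ExDSS, and at 0 to 0.0728 CPM in the other 3. Its log2 fold change had an unadjusted edgeR p of 0.00181 and an adjusted p of 0.350. Tfap2a, a transcription factor of ectoderm and kidney, was at 0 in both NC libraries and at 21.7 and 12.8 CPM in ExDSS. Cdh22, a cadherin, was at 0 in NC and at 67.0 and 11.2 CPM in ExDSS. Rhcg, an ammonia channel of the renal collecting duct, was at 0 in NC and at 19.2 and 7.46 CPM in ExDSS. Against the floor of 3 counts per library, Tfap2a was at least 71.1-fold, Cdh22 at least 161-fold and Rhcg at least 55.0-fold higher. These 4 genes were named for the width of their gap, so the lack of overlap between the groups follows from that choice. ExDSS 1 was the higher ExDSS library for each.

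Other genes with wide gaps joined them. Cyp11b1, a steroid 11-beta-hydroxylase of the adrenal cortex, stood at 0.266 and 0.573 CPM in NC and 22.7 and 20.8 CPM in ExDSS. Reads of Cyp11b1 and its close relative Cyp11b2 may be shared, and Cyp11b2 was at 0 in NC and at 2.47 and 22.9 CPM in ExDSS. Star, which moves cholesterol into mitochondria for steroid synthesis, was at 2.06 and 0 CPM in NC and 57.7 and 30.9 CPM in ExDSS. E4f1 and Col4a4, a transcription factor and a basement membrane collagen, rested largely on ExDSS 1: E4f1 stood at 1.06, 0.286, 168 and 8.30 CPM in NC 1, NC 2, ExDSS 1 and ExDSS 2, and Col4a4 at 0.863, 0, 122 and 6.79 CPM. Cyp4f40, Aox3, Pm20d1, Slc7a5 and Abcg5 were each under 1 CPM in both NC libraries and between 10.4 and 76.6 CPM in ExDSS. Slc7a5 carries large neutral amino acids, and Abcg5 is part of a sterol exporter of intestine and liver. Tnnt2, the troponin T of heart muscle, was at 0.531 and 0 CPM in NC and 14.4 and 15.3 CPM in ExDSS, but also at 4.66, 25.5 and 33.7 CPM in PC 1, PC 2 and Ex 1.

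**Figure D3:**
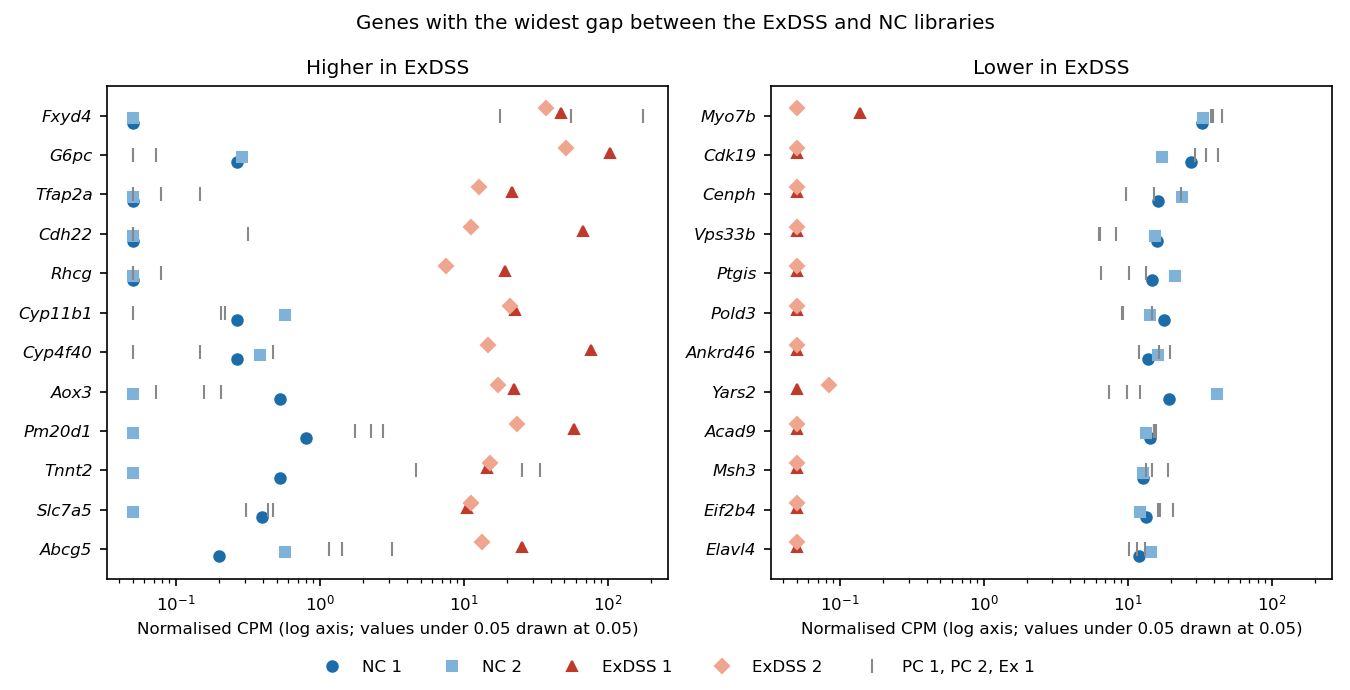
Level of the 12 genes with the widest gap between the groups in each direction (x axis, normalised CPM on a log axis, values under 0.05 drawn at 0.05). Coloured symbols are the 4 libraries compared and grey ticks PC 1, PC 2 and Ex 1. The ticks lie above NC for Fxyd4 and with NC for G6pc. For all 12 lower genes they lie above ExDSS, and for Vps33b, Ptgis and Yars2 also below both NC libraries.

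Markers of other organs were present in several of these libraries. Of 20 kidney genes, a list drawn up after the values were seen and holding G6pc and Rhcg, 18 were tested and 8 were at least 2-fold higher in both ExDSS libraries than in both NC libraries, where 1.65% of all tested genes were. Since the list was chosen on these values, nothing is read from its count. Their summed level was 21.7 CPM in NC 1, 345 CPM in NC 2, 1932 CPM in ExDSS 1 and 451 CPM in ExDSS 2, against 6.48 to 20.4 CPM in PC 1, PC 2 and Ex 1. NC 2 therefore held kidney transcripts at a level near that of ExDSS 2, while G6pc, Tfap2a and Rhcg were at or near 0 in NC 2. Umod, the most abundant protein of urine, was at 1.13, 18.0, 237 and 34.0 CPM in NC 1, NC 2, ExDSS 1 and ExDSS 2. Slc34a1, the phosphate carrier of the proximal tubule, overlapped between the groups at 0.133, 101, 160 and 15.1 CPM. The podocyte gene Nphs1 was at 0 in all 4 libraries. Of 11 adrenal genes, also listed afterwards, 7 were tested and 3 were at least 2-fold higher in ExDSS, again read beside the 1.65% of all genes and not as a result, with sums of 5.71, 26.2, 168 and 78.8 CPM. Nr5a1, Mc2r, Th and Pnmt of that list were at 0 in all 4 libraries. The part of these organs in the higher genes was not tested.

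Pancreatic acinar genes followed libraries rather than groups. The list of 35 had 31 tested members, of which 0 were at least 2-fold apart between the groups. Ctrb1, which encodes chymotrypsinogen, was at 0.0664 and 8028 CPM in NC and at 29383 and 0 CPM in ExDSS. Prss3, a trypsinogen, was at 0, 19.8, 277 and 0 CPM in NC 1, NC 2, ExDSS 1 and ExDSS 2, Pnliprp2, a lipase, at 1.66, 89.0, 304 and 12.2 CPM, and Cela3a, an elastase, at 0, 17.3, 90.5 and 0 CPM. The median log2 difference of the list ranged from -9.77 to 11.28 over the 4 pairs of 1 ExDSS and 1 NC library, while the fitted median was 1.51. It was 12.47 without NC 2 and -12.82 without ExDSS 1.

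For keratin and wound epithelium genes the counts of members apart lay near the shares of all tested genes, so no shared direction is read. Of 23 in the list, 22 were tested, 0 were at least 2-fold higher in ExDSS and 2 (Krt23 and Plaur) were lower, against 1.65% and 12% of all tested genes. The median was -0.04, or 0.08 with RLE scaling, and ranged from -0.26 to 0.26 with 1 of the 4 libraries left out. Krt17, named for its p, and Krt16, picked after its values were seen, are not in that list. Krt17 stood at 2.92 and 4.39 CPM in NC, 303 CPM in ExDSS 1 and 45.4 CPM in ExDSS 2 (log2 fold change 5.57, SE 1.61, edgeR adjusted p = 0.350). Krt16 stood at 0.996, 5.82, 233 and 14.8 CPM. Keratins resemble each other in sequence, so reads may be split between them. In the squamous epithelium list 3 of 11 members were tested. Krt14, a basal cell keratin, was at 3.25, 42.7, 494 and 43.9 CPM in NC 1, NC 2, ExDSS 1 and ExDSS 2, so its groups nearly touched. Krt5, its partner, was at 1.26, 31.3, 125 and 70.6 CPM, and Krt10, a keratin of upper layers, at 4.85, 6.49, 12.4 and 0.755 CPM. Trp63, Sprr3, Lor and Ivl, which define squamous cells, were at 0 in all 4 libraries.

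Genes were also taken at a mean of at least 60 CPM over the 4 libraries. That mean includes both groups, so a gene can pass through 1 group or 1 library alone, as Retn below did. Of the 241 higher genes 12 reached that level, and of the 1747 lower genes 15 did. F13a1, Mmp2 and Hspa2 were picked from the 12 after their values were seen, because they were close within each group. F13a1, the coagulation factor XIII subunit made by resident macrophages, stood at 39.6 and 58.4 CPM in NC and 143 and 193 CPM in ExDSS (log2 fold change 1.78, SE 1.37, edgeR adjusted p = 0.816). Mmp2, a gelatinase of fibroblasts, stood at 36.4 and 34.9 CPM against 88.7 and 80.2 CPM (log2 fold change 1.24, SE 1.37, edgeR adjusted p = 1). Hspa2, a heat shock protein, stood at 28.3 and 37.6 CPM against 123 and 132 CPM (log2 fold change 1.96, SE 1.40, edgeR adjusted p = 0.757). All 3 were lower in PC 1, PC 2 and Ex 1 than in either ExDSS library. Picked in this way, they are not read as standing for stromal genes at large. Mmp2 was the only 1 of 23 tested matrix protease and inhibitor genes at least 2-fold higher, and 3 (Plau, Plaur and Plat) were lower. Of 23 collagen and fibroblast genes 0 were higher and 1 was lower, and of 14 endothelial genes 1 was higher (Emcn) and 1 lower (Cdh5). Of all tested genes 1.65% were higher and 12% lower, and beside these shares nothing about the lists is read from such small counts. Retn, the adipocyte hormone resistin, was at 2.66 and 6.39 CPM in NC but at 18.7 CPM in ExDSS 1 and 405 CPM in ExDSS 2. Ppy, a hormone of pancreatic and colonic endocrine cells, was at 20.8 and 5.73 CPM in NC and 77.2 and 168 CPM in ExDSS.

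Gcnt3, Vil1, Sec11c, Psmb4 and Tmcc3 were picked from the 15 abundant genes lower in ExDSS, and no role shared by the 15 was tested. Gcnt3, which builds branched mucin sugars, stood at 188 and 162 CPM in NC and 50.8 and 50.0 CPM in ExDSS (log2 fold change -1.80, SE 1.46, edgeR adjusted p = 0.863). PC 1, PC 2 and Ex 1 had 213, 106 and 56.9 CPM, so Ex 1 was as low as ExDSS. Vil1, the actin bundler of the brush border, stood at 97.0 and 128 CPM against 25.1 and 43.7 CPM (log2 fold change -1.71, SE 1.40, edgeR adjusted p = 0.869). Sec11c, a subunit of the signal peptidase that trims secreted proteins, stood at 416 and 389 CPM against 157 and 172 CPM. Psmb4, a proteasome subunit, stood at 205 and 202 CPM against 66.3 and 93.6 CPM. Tmcc3 stood at 354 and 188 CPM against 83.5 and 82.3 CPM, and PC 1, PC 2 and Ex 1 lay at the ExDSS level, between 81.4 and 105 CPM. For Sec11c, Vil1 and Psmb4 they lay above both ExDSS libraries. Agr2, a disulfide isomerase that folds mucins, was at 1373 and 1652 CPM in NC and 633 and 724 CPM in ExDSS, just short of 2-fold apart on the scale used (log2 fold change -1.16, SE 1.60, edgeR adjusted p = 1). In bulk tissue, fewer cells of a type and less RNA per cell cannot be told apart.

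The 12 genes with the widest gap in the lower direction had next to no counts in ExDSS and ordinary levels elsewhere. Myo7b, a myosin of the brush border tip, stood at 32.7 and 33.3 CPM in NC, 0.137 and 0 CPM in ExDSS, and 37.6 to 45.4 CPM in PC 1, PC 2 and Ex 1. Cdk19, a kinase of the Mediator complex, stood at 27.6 and 17.3 CPM in NC, 0 in both ExDSS libraries and 29.1 to 42.1 CPM in the other 3. It was at least 67.7-fold lower, against the floor in ExDSS. Kif20b and Ctgf were among the 12 lower genes with the smallest p, and Cftr was picked after its values were seen. Kif20b, a mitotic kinesin, stood at 28.6 and 8.59 CPM in NC and 0 and 0.0839 CPM in ExDSS (log2 fold change -8.25, SE 1.95, edgeR adjusted p = 0.350). Cftr, the chloride channel of crypt cells, stood at 39.0 and 44.7 CPM against 0 and 0.671 CPM. Ctgf, a matrix protein induced by TGF-beta, stood at 126 and 13 CPM against 0 and 0.839 CPM (log2 fold change -7.26, SE 1.85, edgeR adjusted p = 0.350), so the NC libraries themselves were far apart.

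The other lower genes with the widest gaps have roles in many parts of the cell. Cenph is a kinetochore protein, Pold3 a DNA polymerase delta subunit and Msh3 a mismatch repair protein. Yars2 charges mitochondrial tyrosine tRNA, Acad9 assembles respiratory complex I and Eif2b4 is an exchange factor of translation initiation. Vps33b sorts endosomes, Ptgis makes prostacyclin and Elavl4 is a neuronal RNA-binding protein. These 9 genes and Ankrd46 had 12 to 41.8 CPM in the NC libraries and at most 0.0839 CPM in ExDSS, with 6.36 to 23.3 CPM in PC 1, PC 2 and Ex 1. Prrc2b, Ppargc1b, Tgs1 and Tsc1, which were among the 12 lower genes with the smallest p, also lay between 10.7 and 36.8 CPM in those 3 libraries and at or under 0.137 CPM in ExDSS. Ccdc18, Cep170 and Fbxo22, the other genes of low p, had no count in ExDSS and 3.65 to 23.2 CPM in NC. Prrc2b was called by DESeq2 (adjusted p = 0.00154) and limma-voom (adjusted p = 0.0268), and not by edgeR (adjusted p = 0.350).

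The transcripts that chose the groups are given as a description. S100a9 stood at 1144 and 1128 CPM in NC and 1427 and 1033 CPM in ExDSS, and S100a8 at 825 and 792 CPM against 1171 and 559 CPM. Il1b stood at 734 and 437 CPM against 764 and 463 CPM, and Saa3 at 2551 and 3408 CPM against 4380 and 2549 CPM. Cxcl10 stood at 318 and 224 CPM against 564 and 33.6 CPM, with ExDSS 2 lowest. In PC 1, PC 2 and Ex 1 the 5 genes ranged from 0.291 to 19.6 CPM. For all 5 the ExDSS and NC values overlapped.

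**Figure D4:**
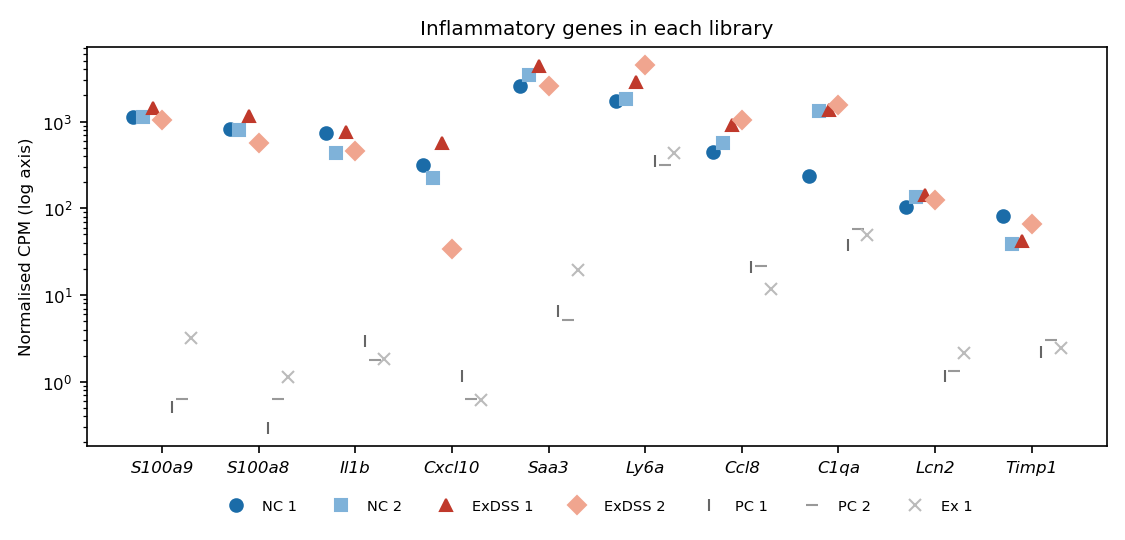
Level of 10 inflammatory genes (y axis, normalised CPM on a log axis) in each library; coloured symbols are NC and ExDSS, grey marks PC 1, PC 2 and Ex 1. S100a9 lies between 1033 and 1427 CPM in the 4 libraries compared. In Ly6a, Ccl8 and, narrowly, C1qa both ExDSS libraries lie above both NC libraries, as they do for 1118 of the 14567 genes tested.

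In gene lists 0 members were called by edgeR. Medians are read beside the median of -0.41 over all genes tested, and counts of members at least 2-fold apart beside the shares of all tested genes, 1.65% higher and 12% lower. The median of all genes itself ranged from -1.69 without ExDSS 2 to 0 without NC 1. Of the 43 lists, 32 had a median that turned sign or reached 0 when 1 of the 4 libraries was left out. The neutrophil list (21 of 25 members tested) had a median log2 fold change of 0.11, which was -0.64 without ExDSS 1, 0.60 without NC 1 and -0.23 with library totals alone. Its 3 members with the smallest p were all low in ExDSS: Ltf, the granule protein lactoferrin, at 2.19 and 10.7 CPM in NC and 0 in both ExDSS libraries, Csf3r, the G-CSF receptor, at 2.59 and 4.20 CPM against 0 and 0, and Clec4e at 28.9 and 11.2 CPM against 0.137 and 0.0839 CPM. Of the 21, these 3 were at least 2-fold lower in ExDSS and 1 (Stfa2) was higher, beside 12% and 1.65% of all tested genes. Il1r2 and Lrg1 went the other way. Il1r2 stood at 17.9 and 24.0 CPM in NC and 42.0 and 39.3 CPM in ExDSS, and Lrg1 at 109 and 34.0 CPM against 175 and 196 CPM. The summed level of the list was 2766 and 2454 CPM in NC and 3584 and 2427 CPM in ExDSS. For monocytes and macrophages (23 of 24 tested) the median was 0.55, between 0.26 and 0.79 in all 4 pairs of libraries, and it was 0.18 without ExDSS 2. C1qa, a complement subunit made by macrophages, stood at 236 and 1333 CPM in NC and 1342 and 1542 CPM in ExDSS. Arg1, an enzyme of wound macrophages, stood at 13.5 and 2.96 CPM against 0 and 0.671 CPM. Cd14, the endotoxin co-receptor, overlapped at 108, 3.05, 14.4 and 10.7 CPM in NC 1, NC 2, ExDSS 1 and ExDSS 2, and Adgre1, the surface marker F4/80, stood at 48.1, 24.1, 57.7 and 106 CPM.

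Several cytokine genes were highest in NC 1. The list (28 of 32 tested) had a median of -0.24 and ranged from -2.70 to 0.79 over the 4 pairs. It was 0.94 without NC 1, -1.98 without ExDSS 1, -2.19 without ExDSS 2 and 0.02 with RLE scaling, so its sign depended on the library left out. Ifng, the interferon of T and NK cells, was at 11.1 and 3.91 CPM in NC and 0 in ExDSS, and Il6 at 16.3 and 1.15 CPM against 0 and 0.335 CPM. Ccl20, which draws in lymphocytes through Ccr6, was at 2.52 CPM in NC 1 and 0 in the other 3. Cxcl5, an epithelial neutrophil attractant, stood at 594 CPM in NC 1 but at 59.0, 42.2 and 103 CPM in NC 2, ExDSS 1 and ExDSS 2. The more abundant Ccl8 went the other way, at 447 and 566 CPM in NC and 915 and 1052 CPM in ExDSS. Of the 28 tested, 0 were at least 2-fold higher in ExDSS and 4 were lower, beside 1.65% and 12% of all tested genes. Interferon-stimulated genes (36 of 36 tested) had a median of -0.13, and of 0.66 without NC 1. Mx1, an antiviral GTPase, was at 9.43 and 0.573 CPM in NC and 0 in ExDSS, and its relative Mx2 at 2.92 CPM in NC 1 and 0 in the other 3. Psmb9, an immunoproteasome subunit, was at 36.4 CPM in NC 1 and under 1 CPM in the other 3. Isg15 and Zbp1, which are more abundant, went the other way. Isg15 stood at 272 and 193 CPM in NC and 481 and 345 CPM in ExDSS, and Zbp1 at 208 and 210 CPM against 319 and 531 CPM. Of the 36 interferon-stimulated genes, 0 were at least 2-fold higher in ExDSS and 1 (Mx1) was lower.

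Acute phase and antimicrobial genes (24 of 26 tested) had a fitted median of 0.81, or 0.66 with genes lacking counts in a group set at their bound. The fitted median was 0.07 without ExDSS 1 and 0.14 without ExDSS 2. Mptx1, a mucosal pentraxin, rested on ExDSS 2 alone: it was at 6.37, 0.0954, 2.33 and 2466 CPM in NC 1, NC 2, ExDSS 1 and ExDSS 2, and at 4248 to 8115 CPM in PC 1, PC 2 and Ex 1. Ang4, an antimicrobial ribonuclease, behaved alike at 41.6, 26.2, 33.2 and 600 CPM, and Retnla at 5.84, 5.63, 11.4 and 77.8 CPM. Reg3g, a bactericidal lectin, went the other way at 3109, 1887, 1703 and 6.37 CPM. Saa2, an acute phase apolipoprotein, was the only member at least 2-fold apart, at 5.11 and 6.97 CPM in NC and 71.8 and 17.4 CPM in ExDSS.

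Epithelial lists lay on both sides of the median of all genes. Goblet and mucus genes (18 of 21 tested) had a median of -0.44, between -0.76 and -0.21 with 1 library left out. B3gnt6, which extends mucin core sugars, was at 7.44 and 9.06 CPM in NC and 0 in ExDSS, and Creb3l1, which drives transcription in secretory cells, at 43.5 and 26.4 CPM against 1.24 and 5.20 CPM. Clca1, a mucus protease, went the other way in ExDSS 2, at 2073, 4170, 4297 and 22778 CPM in NC 1, NC 2, ExDSS 1 and ExDSS 2. Muc2, the gel-forming mucin, overlapped at 2349, 1388, 647 and 1494 CPM. Muc1 stood at 13.1 and 13.1 CPM in NC and 45.2 and 40.3 CPM in ExDSS. It was the 1 goblet and mucus gene at least 2-fold higher, and B3gnt6 and Creb3l1 were the 2 lower, beside 1.65% and 12% of all tested genes. Absorptive colonocyte genes (22 of 24 tested) also had a median of -0.44, and of 0.18 without NC 2. Besides Fxyd4, the sodium channel subunit Scnn1g was at 0, 0, 0 and 1.01 CPM, and the sodium/proton exchanger Slc9a2 was at 1.79 and 0.286 CPM in NC and 0 in ExDSS. In the junction list (24 of 25 tested, median -0.25, or 0.07 without NC 1) Cldn2, a pore-forming claudin, stood at 62.5 and 111 CPM in NC and 4.39 and 13.8 CPM in ExDSS, and Cldn15 at 24.8 and 46.4 CPM against 0 and 4.95 CPM. Tjp1, a junction scaffold, was high only in ExDSS 1, at 396 CPM against 14.7, 0.0954 and 10.8 CPM in NC 1, NC 2 and ExDSS 2. Small intestine absorptive genes (14 of 21 tested) had a median of -0.85, or -1.23 with genes lacking counts set at their bound, and it was 0 without NC 1. The lists of Paneth cells (4 of 12 tested, 0.70), tuft cells (10 of 14 tested, 0.41) and enteroendocrine cells (17 of 17 tested, 0.33) had medians above that of all genes, which without ExDSS 2 were 0.08, -4.13 and -1.17.

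Lists of dividing cell and stem cell genes had fitted medians below that of all genes, an order that turned with 1 library left out. The cell cycle list (36 of 36 tested) had a median of -0.74, with 4 members at least 2-fold lower in ExDSS and 0 higher, a share near the 12% of all tested genes that were lower. These 4 were Kif20b, Bub1, Rrm2 and Hmgb2. Hmgb2, a chromatin protein of dividing cells, stood at 61.4 and 40.9 CPM in NC and 11.8 and 12.1 CPM in ExDSS, and Rrm2, a ribonucleotide reductase subunit, at 9.96 and 1.24 CPM against 0.137 and 0 CPM. Mki67 stood at 41.6 and 58.4 CPM against 26.9 and 13.5 CPM. Over the pairs of libraries the median of this list was between -1.54 and -0.04, and without NC 1 it was -0.03. Without ExDSS 2 it was -0.75, above the -1.69 of all genes. For the stem cell and Wnt target list (15 of 18 tested) the fitted median of -1.63 became -0.73 with genes lacking counts set at their bound. Without NC 1 it was 0.41, above the 0 of all genes. Its lowest p values belonged to Rgmb, at 10.7 CPM in NC 1 and 0 in the other 3, Nkd1, a Wnt feedback inhibitor, at 23.2 and 18.7 CPM against 0 and 0.587 CPM, and Myc, at 2.32 CPM in NC 1 and 0 in the other 3.

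Enteric neuron and glia genes (17 of 17 tested) had a median of -0.67, which was -3.39 without ExDSS 2 and 0 without NC 1. Elavl4 and S100b were among the 4 members at least 2-fold lower in ExDSS, and 0 were at least 2-fold higher, against 12% and 1.65% of all tested genes. S100b, a calcium-binding protein of glia, was at 11.4 and 11.8 CPM in NC and 1.10 and 0 CPM in ExDSS. Elavl3, a neuronal RNA-binding protein like Elavl4, was at 4.12 CPM in NC 1 and 0 in the other 3. The more abundant neuropeptide gene Vip stood at 63.6 and 84.9 CPM in NC and 133 and 196 CPM in ExDSS. Adipocyte genes (15 of 15 tested) had a median of 0.82 with a range of -0.75 to 2.01 over the pairs, and it was -0.52 without ExDSS 2. Cfd, the adipose serine protease adipsin, was at 90.1, 6.20, 128 and 1615 CPM in NC 1, NC 2, ExDSS 1 and ExDSS 2, and Pck1, an enzyme of glyceroneogenesis and gluconeogenesis, at 13.5, 67.1, 621 and 43.4 CPM. Plin1, which coats fat droplets, was at 0.133 CPM in NC 1 and 0 in the other 3. Haemoglobin and haem genes (15 of 15 tested), some of them near-identical copies that can share reads, had a median of 1.04, or 0.29 without ExDSS 2, and the haemoglobins were highest in ExDSS 2, where Hba-a1 reached 2416 CPM against 721 and 962 CPM in NC and 1034 CPM in ExDSS 1. Hpx, the haem carrier hemopexin, was at 33.1 CPM in ExDSS 1 and 0 in the other 3. Hbb-bs and Hbb-b1 had nearly equal values, and Hbb-bs stood at 332, 299, 473 and 1918 CPM in NC 1, NC 2, ExDSS 1 and ExDSS 2.

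**Figure D5:**
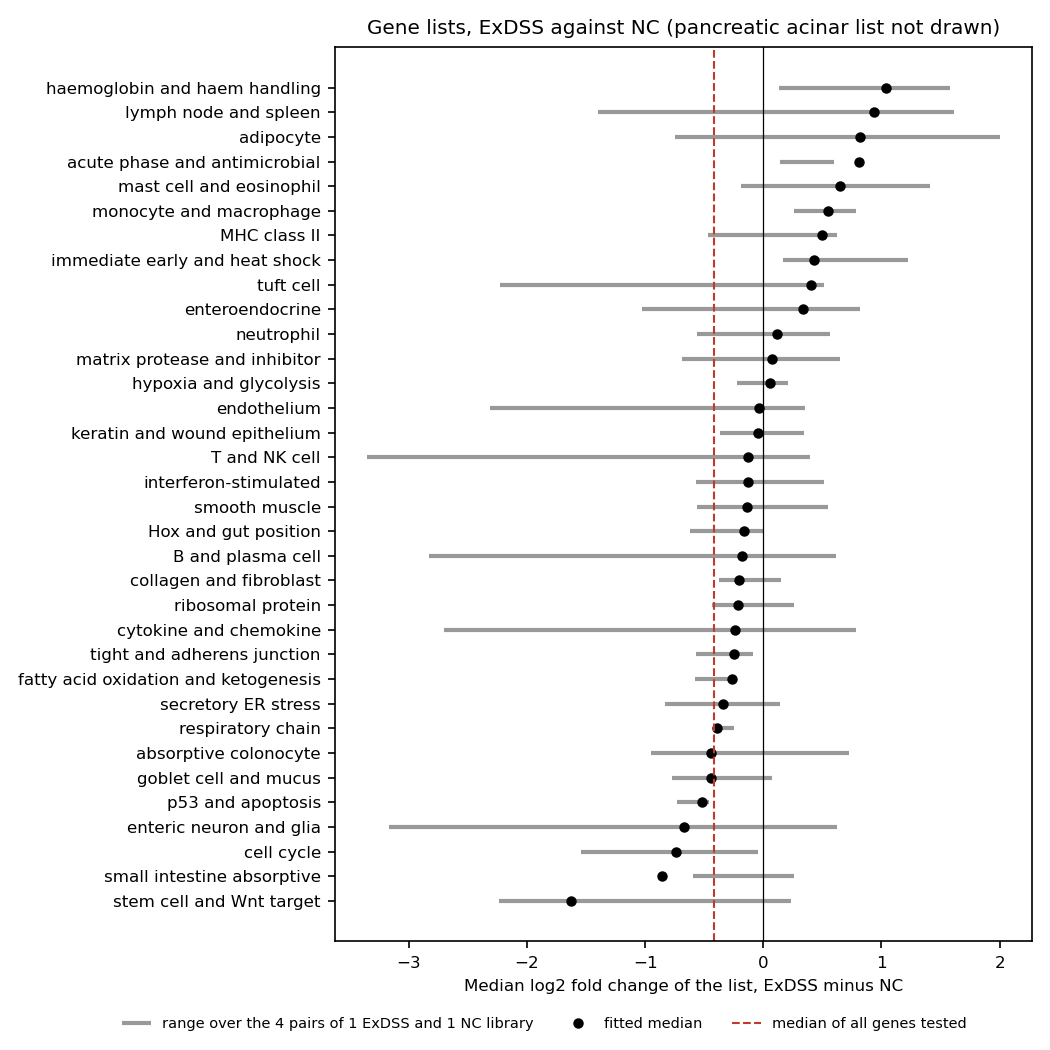
Median log2 fold change (x axis, ExDSS minus NC) of each gene list with at least 10 members tested. Black points are fitted medians, grey bars the range of the median over the 4 pairs of 1 ExDSS and 1 NC library, and the dashed line the median of all genes tested (-0.41); the bar of the cytokine list runs from -2.70 to 0.79 and that of the macrophage list from 0.26 to 0.79.

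Transcript ends of the sets were compared by base composition. For 98.3% of tested genes a reference transcript was found, and the G and C content of its last 300 bases, where reads of this 3' kit fall, had a median of 42.7%. It was 46.3% for the genes at least 2-fold higher in ExDSS and 41.7% for those lower. Median transcript lengths were 2778, 3013 and 2935 bases for the tested, higher and lower genes. These medians are descriptions with no test.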

How the data were processed

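The authors deposited raw counts of reads for each gene in a table with 1 column per library, per the file headers and the whole numbers it holds. According to the labels' protocols, the authors extracted total RNA with Trizol and made libraries with the QuantSeq 3' mRNA kit. Bowtie2, bedtools, edgeR and the build mm9 are named, without versions, per the submitters' processing notes. The table's coordinates matched GRCm38: 22071 of 22139 genes with a counterpart there (99.7%) overlapped it, so positions are given in that build. The strand setting of the counting is not stated in the sources used here, so genes that overlap can share counts.

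Counts were tested with edgeR 4.0.16 in R 4.3.3 (TMM, a filter at a minimum count of 10 and a total of 15, robust quasi-likelihood fit). All 8 libraries entered a model of the 4 groups, which leaves 4 residual degrees of freedom. Of 23282 lines, 14567 were tested, and 4764 had no count in any library. P-values were adjusted by Benjamini-Hochberg over all tested genes. The SE was derived from the log2 fold change and its F statistic. Counts per 1000000 (CPM) use the library total times its TMM factor. Separation of groups was read on log2 CPM with a prior count of 2. Genes without counts in a group are given with their levels or as a bound against 3 counts per library, not with a fitted fold change. The test was tried on simulated counts with known changes at a dispersion of 0.1, where 60% of 4-fold and 100% of 16-fold changes were recovered. The common dispersion of these data was 1.17, so that trial does not measure the power of the test here. DESeq2 1.42.0 and limma-voom (limma 3.58.1) were alternatives, besides other scalings, filters, libraries left out and a replicate block.

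The groups and the 43 gene lists were chosen with earlier results of these data known, and 2 further lists (kidney, adrenal) after the values were seen. Named genes are the 12 per direction with the smallest p, the 12 with the widest gap, the 5 that lead each library (all at a mean of at least 5 CPM, placeholders left out), the 3 members of lowest p of each list described, and the 5 that chose the groups. Any other gene was picked after its values were seen. Some genes that this rule names are not reported here. Per-library levels of placeholder genes are not described.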

Additional observations from a re-analysis of the deposited data

How the results depend on the processing

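The count of genes called by edgeR was 0 under RLE, upper-quartile and total-count scaling, scaling without pancreatic genes and Rn45s, the 5 CPM filter, the 4 libraries alone, the replicate block, the fit without its robust option, and with each library left out. Without a filter on low counts 1 gene was called, 1 of them higher (Fxyd4). DESeq2 called 840 (86 higher, 754 lower) and limma-voom 405 (16 higher, 389 lower), 394 of them by both tools. The cause of this difference between tools was not tested. The median over all tested genes, -0.41 on the log2 scale, was -0.29 with RLE, -0.59 with library totals alone, -0.26 with the 5 CPM filter and -0.18 with the 4 libraries alone. With 1 library left out it ranged from -1.69 (without ExDSS 2) to 0 (without NC 1). The number of genes at least 2-fold higher ranged from 263 to 1606 and of those lower from 1770 to 4887 over the libraries left out, since a group of 1 library meets the condition more easily. The 5 CPM filter, which tests fewer genes, left 1157 lower. For alternatives chosen after seeing the data, leaving out NC 2 and ExDSS 1, the libraries with pancreatic transcripts, gave 2521 higher and 6137 lower genes with 0 called. Restricting the test to genes at 100 CPM or more in PC 1, PC 2 and Ex 1 gave 3 higher, 19 lower and a median of -0.051. No gene with a fitted fold change in the text changed sign. The yardstick for a list median was the pooled standard deviation, within NC and within ExDSS, of the medians of single libraries. List medians moved beyond it in 120 of their alternatives and not in 686. With 1 of the 4 libraries left out, the median turned sign or reached 0 for 32 of 43 lists, and changed its side of the median of all genes for 27. The adipocyte median was -0.52 without ExDSS 2, the neutrophil median -0.64 without ExDSS 1 and the cytokine median 0.94 without NC 1. Scaling turned the sign for the neutrophil list (-0.23 with library totals alone), the cytokine list (0.02 with RLE) and the keratin list (0.08 with RLE), among the lists whose medians the text gives.

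Replicate numbers did not pair the libraries: the correlation of same-numbered deviations was -0.15 between NC and ExDSS and between -0.15 and 0.05 over all pairs of groups. With the replicate block 0 genes were called and the median of all genes was -0.47. The separation of groups has no value under the block or without the robust option. Depth limits genes of few counts, since 3 counts are 0.199 to 0.412 CPM in the 4 libraries.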

Other observations

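Each library had genes that were nearly absent from the other 3. In NC 1, Pparg, a nuclear receptor of colonocytes and adipocytes, stood at 57.2 CPM and at 0 in NC 2, ExDSS 1 and ExDSS 2, while PC 1, PC 2 and Ex 1 had 70.6 to 112 CPM. Sdhd, a subunit of respiratory complex II, was at 171 CPM in NC 1 and at 0.191, 1.92 and 0.755 CPM in NC 2, ExDSS 1 and ExDSS 2, against 282 to 326 CPM in PC 1, PC 2 and Ex 1. Snhg6, E2f2 and Tdrd7 led NC 1 in the same way, at 54.6, 24.8 and 20.6 CPM. For these genes NC 1 was the library that lay with PC 1, PC 2 and Ex 1.

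In NC 2 the leading genes were Greb1l, Dvl3, Mutyh, B3galt4 and Csl, at 20.9 to 35.2 CPM, with at most 1.26 CPM in the 3 others. In ExDSS 1 they were Tmem116, Frmd5, Gdf11, Cdh4 and Wwc1, at 78.4 to 120 CPM, with 0 in ExDSS 2 and at most 0.199 CPM in the NC libraries. PC 1, PC 2 and Ex 1 had at most 1.12 CPM of these 5. In ExDSS 2 they were Mptx1, Ankrd52, Ang3, Ang5 and Spock1. Ang3 and Ang5 are angiogenin copies with equal counts, so their reads are shared, and stood at 23.8 CPM in ExDSS 2 and 11.5 to 15.4 CPM in PC 1 and PC 2. Of the 519 genes short of 1 CPM in ExDSS 1 although at 20 CPM or more in PC 1, PC 2 and Ex 1, 70 were also short in ExDSS 2 and 71 in NC 2.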
